A study of Mus musculus with 8 samples.

Results

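The inner root sheath is the hard epithelial sleeve that surrounds and shapes a growing hair inside its follicle, and 8 genes of its filaments and matrix were followed here in the skin of a hairless mouse strain. They are the type I keratins *Krt25*, *Krt26*, *Krt27* and *Krt28*, the type II keratins *Krt71*, *Krt72* and *Krt73*, and trichohyalin (*Tchh*). They were chosen by gene family, after *Krt25* and *Krt73* had ranked high in the comparison of diets in these same arrays. Each of the 8 was measured by 1 probe set that names it alone, and all 8 lay among the 12735 of 18193 measured genes kept once the 30% of genes with the lowest mean level had been set aside. Expression was measured on 8 oligonucleotide arrays of dorsal skin from female Hos:HR-1 mice aged 21 weeks, which the labels call biological replicates. Control mice (4 arrays) had eaten AIN-93G, a purified rodent diet, for 12 weeks from 9 weeks of age. Collagen mice (4 arrays) had eaten that diet with a peptide digest of collagen added (fish scale collagen hydrolysate), 2 g to every 100 g of control diet. The study held 16 mice, 8 on each diet. Every mouse was of the hairless strain, and no haired strain was analysed here.

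Keratin filaments form from pairs of 1 type I and 1 type II chain, and the inner root sheath has its own set of both. *Krt25*, *Krt27*, *Krt28* and *Krt71* are known from all layers of the sheath, and *Krt26*, *Krt72* and *Krt73* from its cuticle, the layer that interlocks with the hair. Trichohyalin is the matrix protein that embeds these filaments. Peptidylarginine deiminases convert its arginines to citrulline and transglutaminases crosslink it to the keratins, which hardens the sheath. Hairless mice of this kind shed their first coat and keep remnants of follicles in the skin.

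The type I genes are neighbours on chromosome 11 and the type II genes on chromosome 15, while *Tchh* lies on chromosome 3 in the RefSeq annotation of GRCm38.p6. No protein-coding gene lies between *Krt25* and *Krt28* apart from *Krt26* and *Krt27*, and *Krt74*, annotated as a transcribed pseudogene in this mouse assembly, lies between *Krt71* and *Krt72*. Start regions are printed for *Krt25* and *Krt73*, the genes with the 2 largest diet differences in units of their within-diet SD. Those of another gene of each cluster, *Krt27* and *Krt71*, are printed with them. Each RefSeq window holds 250 bases before and 50 after the annotated start, written from 5′ to 3′ on the strand of the gene, which is the minus strand in all 4. Capitals mark TATAAA, the core of the box that positions many promoters, and the motif AGATAA, which factors of the Gata family can recognise. The 4 genes shown are the keratins whose windows hold AGATAA, which *Krt26*, *Krt28* and *Krt72* lack.
Krt25, chr11:99322902-99323201: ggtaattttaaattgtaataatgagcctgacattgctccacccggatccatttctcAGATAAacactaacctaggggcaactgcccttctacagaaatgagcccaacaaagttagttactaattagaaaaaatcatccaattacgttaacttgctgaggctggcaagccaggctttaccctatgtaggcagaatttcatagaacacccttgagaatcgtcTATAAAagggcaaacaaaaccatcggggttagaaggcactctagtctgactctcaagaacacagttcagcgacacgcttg
Krt27, chr11:99351069-99351368: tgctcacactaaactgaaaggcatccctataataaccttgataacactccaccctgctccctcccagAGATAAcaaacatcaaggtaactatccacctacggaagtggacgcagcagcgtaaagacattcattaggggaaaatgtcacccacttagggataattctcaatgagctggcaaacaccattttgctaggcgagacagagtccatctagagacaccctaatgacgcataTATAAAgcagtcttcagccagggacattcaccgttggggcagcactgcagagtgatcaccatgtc
Krt71, chr15:101743048-101743347: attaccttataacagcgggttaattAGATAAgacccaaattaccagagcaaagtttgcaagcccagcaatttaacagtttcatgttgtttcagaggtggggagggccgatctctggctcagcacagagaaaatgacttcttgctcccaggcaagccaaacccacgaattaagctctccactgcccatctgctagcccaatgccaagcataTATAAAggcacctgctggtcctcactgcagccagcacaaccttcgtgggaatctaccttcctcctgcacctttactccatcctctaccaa
Krt73, chr15:101802311-101802610: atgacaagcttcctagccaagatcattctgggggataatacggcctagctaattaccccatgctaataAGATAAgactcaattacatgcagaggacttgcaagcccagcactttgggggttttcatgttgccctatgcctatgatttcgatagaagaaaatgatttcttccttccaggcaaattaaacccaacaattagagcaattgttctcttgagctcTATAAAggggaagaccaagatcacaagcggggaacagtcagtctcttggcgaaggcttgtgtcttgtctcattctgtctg

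All 8 genes had such a window, and both strands of each were searched for 5 motifs. TATAAA occurred in 7 of the 8 windows, against 13.6% of all 32851 windows. In *Krt25*, *Krt26*, *Krt28* and *Krt73* a match began 30 bases before the start, in *Krt71* 40 bases and in *Krt27* 15 bases before it. The match in *Krt72* lay on the opposite strand, 203 bases upstream, and *Tchh* had none. AGATAA occurred in 5 windows (*Krt25*, *Krt27*, *Krt71*, *Krt73* and *Tchh*), against 11.2% of all windows, and began between 154 and 225 bases before the start. TGATAA occurred in 1 window (9.05% of all), CTTTGA in 2 (16%) and TGANTCA in 0 (7.81%). *Krt71* and *Krt73* shared the stretch TTGCAAGCCCAGCA of 14 bases, the longest exact match among the 28 pairs of windows, and 2 of all windows held it. It began 196 bases before the start of *Krt71* and 154 bases before that of *Krt73*. Among the type I genes, *Krt26*, *Krt27* and *Krt28* held CCCANTTA, a motif chosen after the sequences were seen that 2.75% of all windows hold. These matches describe the letters of the reference genome and say nothing of binding in these mice.

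All 8 genes gave signal above the lowest values of the arrays, and their levels spanned a wide range. The mean deposited log2 value was 10.32 for *Krt25*, 9.37 for *Tchh*, 9.22 for *Krt27*, 8.50 for *Krt71*, 8.17 for *Krt73*, 7.80 for *Krt28*, 7.42 for *Krt72* and 7.03 for *Krt26*. These values place *Krt25* above 94.3% and *Krt26* above 39.7% of the 18193 genes. Probe sets bind with unequal strength, so this is the order of signals and not of RNA amounts. For comparison, 10 genes of other organs, such as *Alb* of the liver and *Ins2* of the pancreas, lay between the positions 5.83% and 40.5%, a range that holds *Krt26* alone of the 8. Skin itself was marked by *Krt5*, *Krt14*, *Krt1* and *Krt10*, the main keratins of the epidermis, at or above the position 99.6%. Of the other epidermal keratins listed, *Krt77*, *Krt80* and *Krt78* stood at 99.7%, 95.0% and 87.4%. *Krt2* was the lowest at 29.2%, inside the range of the genes of other organs.

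The deposited values differed little between arrays, so differences are given in thousandths of a log2 unit and in units of the within-diet SD of each gene. The sources used here do not give how the values were summarized, and such a difference is no fold change of RNA. The within-diet SD was lowest in *Krt72* at 0.315 and highest in *Tchh* at 2.91 thousandths, against a median of 0.0194 over the genes tested. All 8 genes stood at or above the position 93.2% of genes by this SD, with *Tchh* at 98.0%. The 8 genes varied more between arrays of the same diet than most genes did on this scale.

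Arrays of the same diet differed from each other in the same direction for most of these genes. Control replicate 1 was the highest control array in 7 of the 8 genes, and collagen replicate 4 the highest collagen array in 7. Collagen replicate 3 was the lowest collagen array in 7 genes, and control replicates 2 and 3 were each the lowest control array in 4. Averaged over the 8 genes, control replicate 1 lay 1.17 within-diet SD above its diet mean and collagen replicate 4 lay 1.11 above, while collagen replicate 3 lay at -1.05. Whole skin was measured, so fewer sheath cells and less RNA in each cell cannot be told apart.

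**Figure D1:**
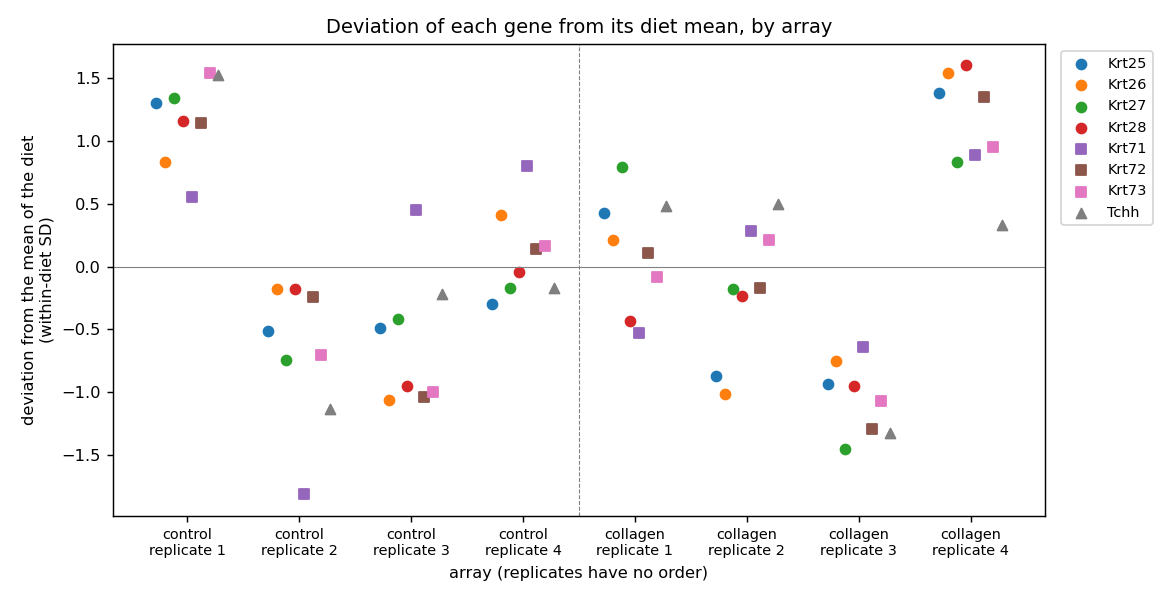
Deviation of each of the 8 genes from the mean of its diet, in within-diet SD (y axis), in the 8 arrays (x axis), with 1 symbol a gene. All 8 genes lie above 0 in control replicate 1 and collagen replicate 4 and below 0 in collagen replicate 3; *Krt71* in control replicate 2 is the lowest point at -1.81.

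Values centred on the mean of their diet were compared between genes over the 8 arrays, a measure that does not contain the diet difference by which the genes were picked. All 28 pairs were positively correlated, against 50.9% of all pairs of genes tested, with a median Pearson's r of 0.79 (range 0.35 to 0.96) and a median Spearman's rho of 0.74. An r of at least 0.7 was reached by 18 of 28 pairs, against 5.32% of all pairs of genes tested and 9.61% of pairs of genes whose within-diet SD lay in the range of these 8. The median r was 0.88 over the 6 pairs within type I, 0.84 over the 12 pairs of a type I with a type II keratin, 0.69 over the 7 pairs with *Tchh*, and 0.57 (range 0.44 to 0.94) over the 3 pairs within type II. The strongest pair was *Krt28* with *Krt72*, a type I and a type II chain, at r = 0.96 and rho = 0.88 (exact two-sided permutation within diets, p = 0.00521 and 0.0104; Benjamini-Hochberg over 28 pairs, 0.0292 and 0.0583). The cuticle keratins *Krt72* and *Krt73* followed at r = 0.94 and rho = 0.90 (exact permutation p = 0.00347 and 0.0104; adjusted 0.0243 and 0.0583). *Krt27* and *Tchh* gave r = 0.91 and rho = 0.83 (exact permutation p = 0.0174 and 0.0382; adjusted 0.0442 and 0.0891), and *Krt25* and *Krt27* gave r = 0.90 and rho = 0.90 (exact permutation p = 0.00174, the smallest possible, and 0.00347; adjusted 0.0243 and 0.0583). Without the 2 arrays farthest from the median of the first gene, r in these 4 pairs was 0.90, 0.93, 0.98 and 0.91. In that setting *Krt26* fell from 0.90 to 0.68 with *Krt72* and from 0.88 to 0.50 with *Krt28*. Over all 28 pairs, 17 then had an r of at least 0.7.

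By Pearson's r 11 of the 28 pairs had an adjusted p below 0.05, and by Spearman's rho 0 had, where the smallest adjusted p was 0.0583. The sizes of the correlations changed less than the calls when an array was left out: the median r lay between 0.69 (without control replicate 1) and 0.87, and all 28 pairs stayed positive in each case. Without the 2 arrays farthest from the median of the first gene, the lowest r was -0.25, for *Krt25* and *Krt71*. The count of pairs with an adjusted p below 0.05 was 0 without any 1 of control replicates 1 to 4 or collagen replicates 3 and 4, and 8 and 12 without collagen replicates 1 and 2. With 7 arrays the smallest exact p is 0.00694. After quantile normalization the median r was 0.75 with 0 such pairs, and after median centring 0.82 with 14.

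*Krt71*, the type II chain known from all sheath layers, had the lowest r with the mean of the other 7 genes. Its 7 correlations lay between 0.35 with *Krt26* and 0.61 with *Tchh*, with rho between 0.45 and 0.76, and 0 had an adjusted p below 0.05 (exact permutation, adjusted p from 0.252 to 0.398). The other 21 pairs had a median r of 0.87, and the difference between these groups of pairs was not tested. By rank the order differed, with a median rho of 0.67 over the pairs with *Krt71* and 0.55 over those with *Tchh*. The median r of the pairs with *Krt71*, 0.45, lay between 0.24 (without collagen replicate 4) and 0.62 (without control replicate 3) when 1 array was left out. It was 0.53 without control replicate 2, the lowest array of *Krt71*. After quantile normalization it was 0.63 (range 0.12 to 0.81), against 0.77 for the other 21 pairs, and after median centring 0.53 against 0.88.

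**Figure D2:**
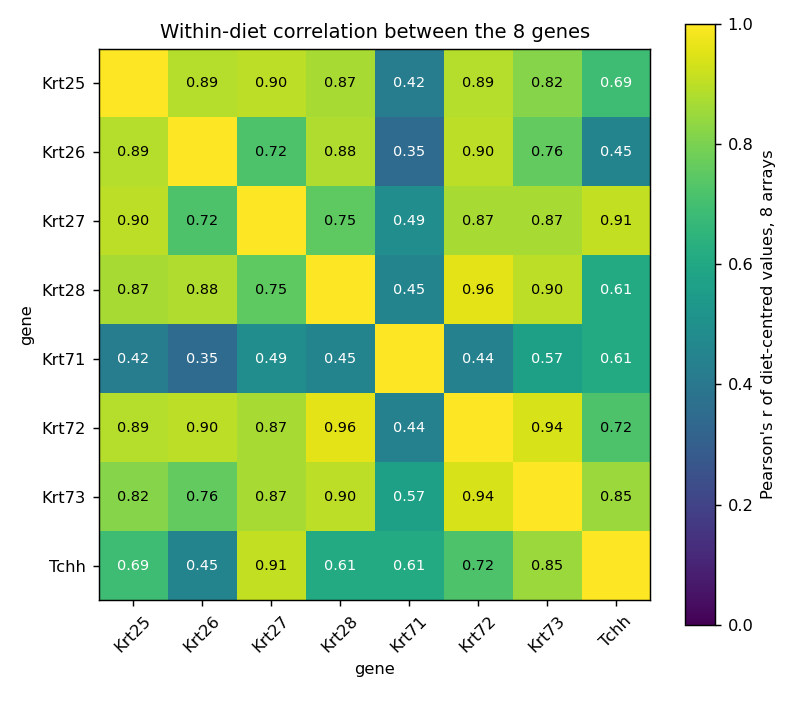
Pearson's r between each pair of the 8 genes (both axes) over 8 arrays, after each value was centred on the mean of its diet; colour runs from 0 to 1. The row of *Krt71* holds values from 0.35 to 0.61, while *Krt72* with *Krt28* reaches 0.96.

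Genes outside the group were ranked by their r with the mean profile of the 8. An r of at least 0.7 was found for 772 of 12727 other genes (6.07%) and of at least 0.9 for 58. The 10 highest were *Stoml2*, *Riox2*, *Wapl*, *Lysmd4*, *Papola*, *Cops4*, *Polr3k*, *Nop16*, *Mydgf* and *Rad23b*, with r from 0.98 to 0.95 over 8 arrays, and none of them is on a list of hair or epidermal genes used here. Their differences between the diets ranged from -2.0 SD (*Rad23b*) to 2.37 SD (*Riox2*). Their values varied little: the within-diet SD ran from 0.00197 (*Riox2*) to 0.121 (*Nop16*) thousandths, against 0.315 for *Krt72*, the lowest of the 8. The 8 genes themselves had an r of 0.52 (*Krt71*) to 0.94 (*Krt72* and *Krt73*) with the mean of the other 7.

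On the collagen diet the mean of every one of the 8 genes was higher than on the control diet, by 0.68 to 3.07 SD, and in 7 of them by at least 1 SD (6.26% of all genes tested). The comparison asks which skin genes differ with the diet, and no gene passed it. With limma and Benjamini-Hochberg adjustment over 12735 genes, 0 genes had an adjusted p below 0.05 (0.0%), so 0 of the 8 did, while 682 genes (5.36%) had an unadjusted p below 0.05. The 8 genes were picked from this contrast, so their differences are described without a test. For orientation, 45.5% of all genes tested had a higher mean on the collagen diet. The median difference was -0.08 SD over all genes tested against 1.63 SD over the 8 genes. The 8 genes varied together within diets, with a median r of 0.79, so their differences are not 8 independent observations.

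Among the type I keratins, *Krt25* had the largest difference in SD units and *Krt27* in thousandths; after quantile normalization *Krt27*, at 1.28 SD, exceeded *Krt25*, at 1.12 SD, in SD units too. The values of *Krt25* in the 4 control arrays were 0.88, -0.34, -0.33 and -0.2 thousandths above the control mean, and in the 4 collagen arrays 2.36, 1.48, 1.44 and 3.01. All 4 collagen arrays lay above all 4 control arrays, of which replicate 1 was the highest by a wide gap. The difference was 2.07 ± 0.478 thousandths (SE, n = 4 per diet), or 3.07 SD. *Krt27* had control values of 1.7, -0.95, -0.54 and -0.21 and collagen values of 3.51, 2.28, 0.67 and 3.56 thousandths. Here 3 collagen arrays exceeded all controls, and collagen replicate 3 fell below control replicate 1. Its difference was 2.51 ± 0.897 thousandths (SE, n = 4 per diet), or 1.97 SD.

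*Krt26* and *Krt28* overlapped more. *Krt26* had control values of 0.92, -0.2, -1.18 and 0.46 and collagen values of 1.49, 0.13, 0.42 and 2.97 thousandths, a difference of 1.13 SD. *Krt28* had control values of 0.62, -0.09, -0.51 and -0.02 and collagen values of 0.32, 0.42, 0.04 and 1.4 thousandths, a difference of 1.02 SD. In *Krt28* only collagen replicate 4 exceeded all controls, and in *Krt26* collagen replicates 1 and 4 did.

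Among the type II keratins, *Krt73* was the one whose diets did not overlap. Its control values were 0.65, -0.3, -0.42 and 0.07 thousandths and its collagen values 1.08, 1.2, 0.66 and 1.52. The lowest collagen array, replicate 3, lay just above the highest control array, replicate 1, so the separation rests on a narrow gap. The difference was 1.12 ± 0.299 thousandths (SE, n = 4 per diet), or 2.64 SD. *Krt71* had control values of 0.93, -3.05, 0.76 and 1.36 and collagen values of 1.27, 2.64, 1.07 and 3.66 thousandths, or 1.28 SD. Control replicate 2 alone was far below the rest, and the other 3 controls lay beside the lower collagen arrays. *Krt72* had control values of 0.36, -0.07, -0.33 and 0.04 and collagen values of 0.25, 0.16, -0.19 and 0.64 thousandths, the smallest of the 8 differences at 0.68 SD.

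*Tchh*, the matrix protein, had the largest difference on the deposited scale and an intermediate one relative to its spread. Control values were 4.43, -3.29, -0.63 and -0.5 thousandths and collagen values 7.27, 7.33, 2.02 and 6.82. In 3 collagen arrays it was higher than in every control, and collagen replicate 3 lay below control replicate 1. The difference was 5.86 ± 2.06 thousandths (SE, n = 4 per diet), or 2.01 SD. Diets thus did not overlap in 2 of the 8 genes; over all genes tested 0.777% did not overlap and were higher on the collagen diet, and 2.53% did not overlap and were lower. Without control replicate 1 the count was 5 of 8, against 1.61% of all genes tested in those 7 arrays, and without collagen replicate 3 it was 4 of 8, against 2.1%.

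**Figure D3:**
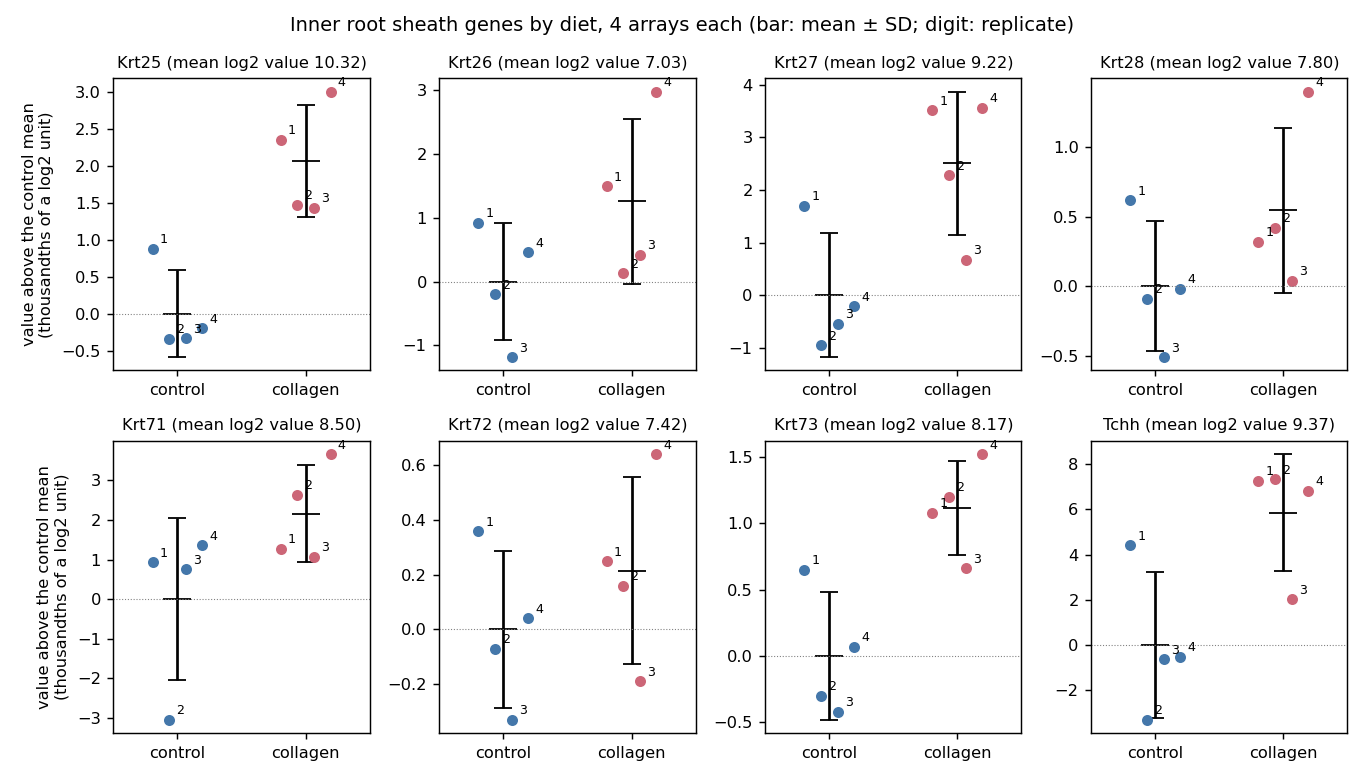
Value of each of the 8 genes in each array, in thousandths of a log2 unit above the mean of the control arrays (y axes differ between panels), by diet (x axis), with mean ± SD over 4 arrays and the replicate number beside each point. The diets do not overlap in *Krt25* and *Krt73*; control replicate 1 and collagen replicate 3 lie nearest to the other diet in most panels.

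Other settings changed the size of the differences, and in 1 gene the direction. Quantile normalization lowered *Krt25* to 1.12 SD and *Krt73* to 1.48 SD, left *Tchh* at 2.05 SD, and turned *Krt72* to -0.61 SD, with 0 of the 8 genes free of overlap (0.0393% of all genes tested). After median centring *Krt25* stood at 2.98 SD and all 8 genes were higher, with *Krt25* the only one of the 8 free of overlap (0.0628% of all genes tested). In these settings 34.3% and 13.5% of all genes tested were higher on the collagen diet. Leaving out 1 array moved *Krt73* between 2.33 and 4.2 SD and *Tchh* between 1.73 and 3.3 SD, the highest value in both without control replicate 1, and *Krt72* between 0.27 and 1.27 SD. *Krt27* reached 3.07 SD without collagen replicate 3.

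**Figure D4:**
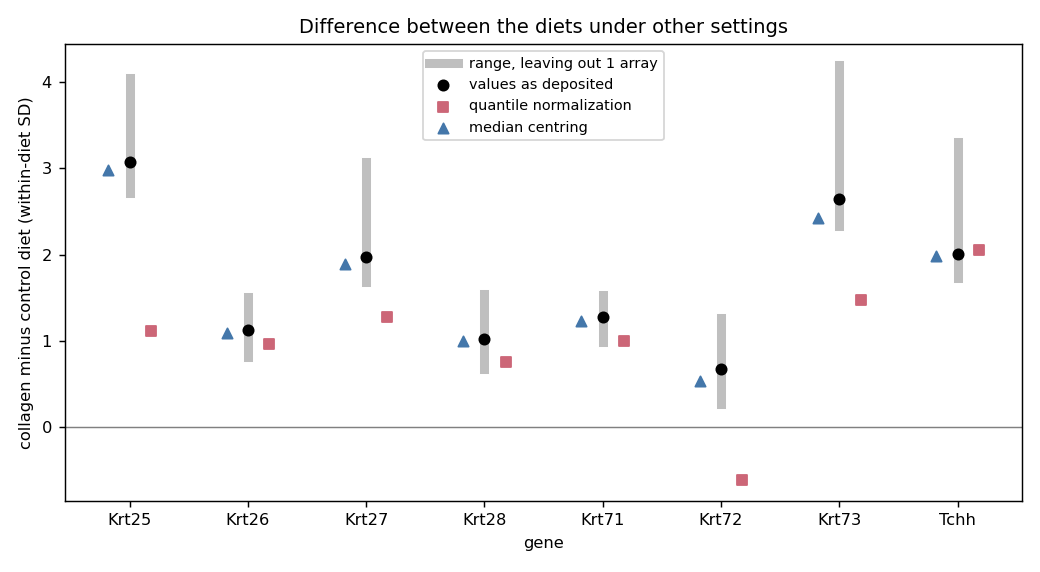
Difference between the diets, collagen minus control, in within-diet SD (y axis) for the 8 genes (x axis): circles give the deposited values, squares quantile normalization, triangles median centring and grey bars the range when 1 array is left out. *Krt72* after quantile normalization, at -0.61 SD, is the only point below 0.

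Genes that act with the sheath keratins lay on both sides of 0. The list of other inner root sheath genes held 25 genes, namely regulators such as *Gata3* and *Cux1*, trichohyalin-modifying enzymes and cornification proteins, of which 23 were tested. Of these, 14 were higher and 9 lower on the collagen diet, with a median of 0.20 SD, and 0 passed in either direction (limma, adjusted p below 0.05). *Padi1* and *Padi3*, deiminases that act on trichohyalin, differed by 2.50 and 1.64 SD, *Dlx3*, a homeodomain factor of the hair matrix, by 1.5 SD and *S100a3*, a calcium-binding protein of the hair cuticle, by 1.39 SD. Quantile normalization brought *Padi1* and *Dlx3* to -0.03 and -0.06 SD and median centring to -0.04 and -0.03 SD, and in these settings 10 and 8 of the 23 genes were higher. *Padi3* came to 0.16 and 0.03 SD, and *S100a3* to 0.81 and 1.26 SD. By level *Padi1* stood at the position 37.4%, inside the range of the genes of other organs, which ended at 40.5%. *Gata3*, which specifies the sheath lineage, differed by 1.23 SD, and by -0.65 SD after quantile normalization. The transglutaminases *Tgm1*, *Tgm3* and *Tgm5* differed by 0.13, 0.40 and -0.28 SD, and each turned its sign under 1 of the 2 normalizations. *Gata3* and the transglutaminases were named for their roles, after their values were seen. By within-diet r with the 8-gene profile, *S100a3* (0.82), *Tgm5* (0.82) and *Rptn* (0.74), a cornified envelope protein, were at or above 0.7, and the median of the list was 0.35; these 3 were named after their values were seen.

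Hair shaft keratins and matrix genes, made in the cells that the sheath encloses, had a higher mean on the collagen diet in 10 of 13 cases; the median difference was 0.95 SD, and 0 passed the test. The shaft keratins *Krt33b*, *Krt35* and *Krt86* differed by 1.99, 1.95 and 1.59 SD, and *Hoxc13*, a regulator of shaft keratins, by -2.12 SD. The diets did not overlap in any of these, so 3 of the 13 were higher and 1 lower without overlap. Over all genes tested the shares were 0.777% and 2.53%. By level *Krt86* stood at the position 33.2%, inside the range of the genes of other organs, which ended at 40.5%. *Krt35* stood at 45.3% and *Krt33b* at 51.6%. After either normalization 7 of the 13 were higher, with medians of 0.05 and 0.15 SD, and quantile normalization and median centring brought *Hoxc13* to -0.08 and -0.49 SD, *Krt33b* to 0.21 and 0.72 SD, *Krt35* to -0.22 and 0.78 SD and *Krt86* to 1.32 and 1.45 SD. Within diets the shaft list had a median r of 0.05 with the sheath profile, from -0.67 to 0.76 (*Krt35*). Collagen replicate 4, the highest collagen array in 7 sheath genes, was the lowest for the shaft list at a mean deviation of -0.63 SD.

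The companion layer and outer root sheath, which lie outside the inner sheath, gave 6 higher and 4 lower means; the median difference was 0.32 SD, and 0 passed. *Lhx2*, a stem cell factor, differed by 2.11 SD, and by -0.49 and -0.05 SD after quantile normalization and median centring. *Krt79* (-1.16 SD), *Krt17* (-1.02 SD) and *Sox9* (-0.97 SD) were the others with the largest differences. Quantile normalization gave *Krt79* and *Krt17* 0.71 SD each and left *Sox9* at -0.61 SD. A difference of 0.71 SD can result from a single array that differs while all others are equal. It is therefore not read as a change of direction. Median centring gave -0.2, -0.66 and -0.39 SD for *Krt79*, *Krt17* and *Sox9*. In these settings 6 and 5 of the 10 genes were higher, with medians of 0.22 and 0.0 SD. Within diets the median r of this list with the sheath profile was 0.22, from -0.61 (*Lgr5*, a stem cell marker) to 0.91 (*Krt16*), and *Krt6b* had 0.78. *Krt16* and *Krt6b*, keratins that stressed epidermis also makes, and *Lgr5* were named after their values were seen. Epidermal keratins gave 4 higher and 3 lower means, a median difference of 0.24 SD and 0 passing, among them *Krt77* at 1.64 SD, *Krt5* at -1.02 SD, *Krt78* at 0.88 SD and *Krt10* at 0.80 SD. Quantile normalization gave positive differences for 5 of these 7 keratins. *Krt1*, *Krt5*, *Krt10* and *Krt77* each stood at 0.71 SD, which was also the list median, and *Krt14* at -0.71 SD. For the reason given above, values of this size are not read as a direction, nor *Krt5* as reversed. *Krt78* turned to -0.52 SD. Median centring left 2 of the 7 epidermal keratins higher, at a list median of -0.13 SD, and *Krt10* turned to -0.13 SD. Their median r with the sheath profile was 0.12.

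Markers of other cell types were set against the sheath profile within diets. All 6 dermal fibroblast markers (*Col1a1*, *Col1a2*, *Col3a1*, *Dcn*, *Lum* and *Pdgfra*) had a negative within-diet r with the profile, from -0.70 to -0.38. Their summed log2 level ran from 70.271 to 70.284 in control and from 70.269 to 70.290 in collagen arrays, with 0 markers missing, and their part in the variation of the sheath genes was not tested. Skeletal muscle markers, which were low in control replicate 4 and collagen replicate 1 (mean deviations of -1.25 and -1.43 SD), had a median r of -0.12. Without those 2 arrays the median difference of the 8 sheath genes was 1.49 SD and their median r was 0.88. All 4 sebaceous gland markers and all 3 dermal papilla markers tested had a positive r, with medians of 0.32 and 0.15, and their part in the result was not tested. The median r was 0.23 for immune cell, -0.02 for adipocyte, -0.12 for melanocyte and -0.14 for smooth muscle markers.

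**Figure D5:**
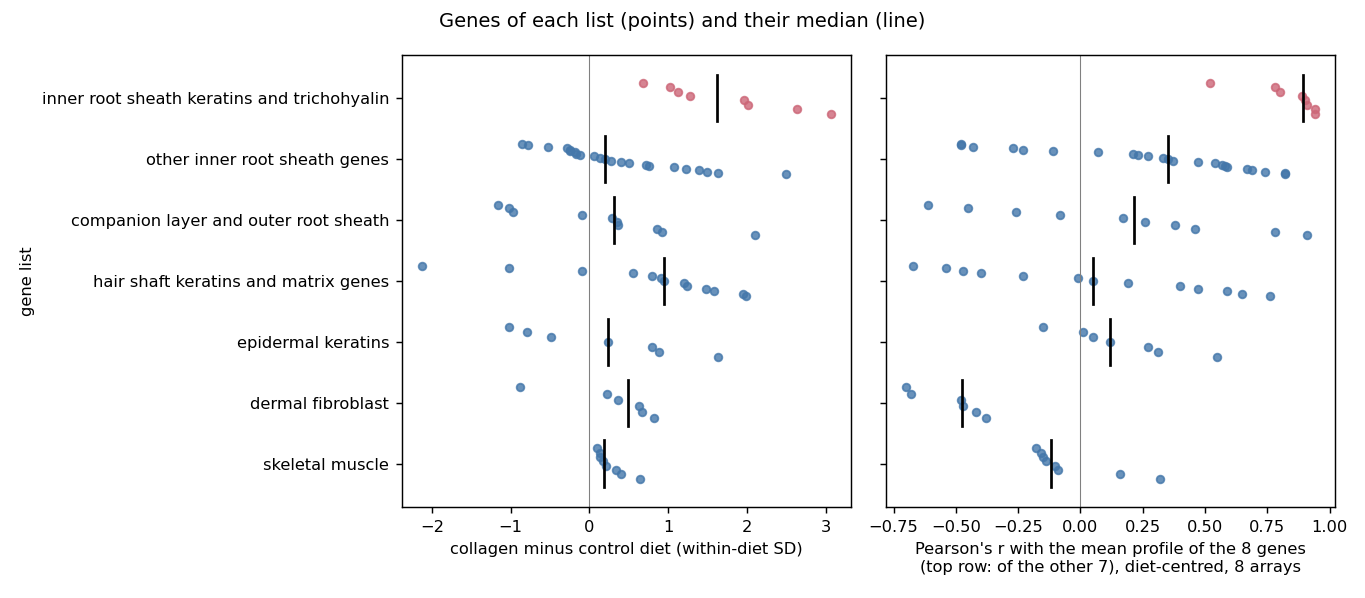
Genes (points) and medians (lines) of 7 lists (y axis), by difference between the diets in within-diet SD (left) and by within-diet Pearson's r over 8 arrays with the mean profile of the 8 sheath genes, or of the other 7 for the top row (right). The 8 sheath genes lie to the right of 0 in both panels, and the 6 fibroblast markers to the left of 0 in the right panel.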

How the data were processed

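Per the labels' protocols, 200 ng of total RNA from dorsal skin was amplified from the 3' end and labelled with biotin. The authors deposited 1 log2 value per probe set and array; the scale was judged from the range of the values, R 2.7.2 is named in the submitters' processing notes, and the method of summarizing and normalizing is in none of the sources used here. The number of arrays limits the precision: an exact test of 4 against 4 cannot give a p below 0.0286. No pair of arrays shared more than 0.022% of its gene values.

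Of 45101 probe sets, 64 controls were set aside, and 34945 of the others name 1 gene symbol in the platform annotation, 932 several and 9160 none. A gene was represented by its probe set with the highest mean. The diet comparison used limma 3.58.1 under R 4.3.3 (intensity trend, two-sided, Benjamini-Hochberg, 0.05), which was tested on simulated data. A difference in SD units is collagen minus control divided by the pooled within-diet SD. A position is the percent of genes at or below a value.

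The members and lists were chosen with earlier results of these data known. Genes named beside the 8 members are the 4 of each list with the largest difference, the 10 most like the member profile, the markers listed for other cell types and organs, and those said to be chosen later. Alternatives were other filters, quantile normalization, median centring, variance settings, the mean of all probe sets, the replicate number as a block, leaving out each array and, chosen after seeing the data, leaving out the 2 arrays low in muscle genes.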

Additional observations from a re-analysis of the deposited data

Results flagged for a closer look

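In 3 of 16 groups of 4 arrays (8 genes, 2 diets) a single array stood far from the other 3, with its gap, as a share of the whole range, above Dixon's critical value; chance alone does this in about 1 in 20 groups. *Krt25* was high in control replicate 1, with a gap of 0.887 of the range of the control arrays. *Krt71* was low in control replicate 2, with a gap of 0.865. *Tchh* was low in collagen replicate 3, with a gap of 0.905.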

How the results depend on the processing

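No gene passed the diet comparison under any setting except *Plk1*, no sheath gene, which made the count 1 with the lowest 50% of genes left out (adjusted p = 0.0397 in limma) and 1 without control replicate 1 (0.0287), so leaving out 1 array gave 0 to 1. The count of sheath genes higher on the collagen diet was 8 of 8 whichever array was left out and 7 after quantile normalization, which turned *Krt72* to -0.61 SD. The count without overlap was 0 after quantile normalization, 1 after median centring and 2 to 5 leaving out 1 array, where between 1.44% and 2.19% of all genes tested did not overlap and were higher. The median difference lay between 1.34 and 2.19 SD leaving out 1 array. The labels give no pairing of arrays by replicate number. Correlations of same-numbered arrays over all genes were 0.004, -0.018, 0.185 and -0.072, and those of differently numbered arrays ran from -0.313 to 0.168. So few values cannot decide whether arrays were paired. With the replicate block the median difference was 1.97 SD, against 1.63 SD without it, and 0 genes passed. The count of pairs of sheath genes with an adjusted p below 0.05 was 11 with all arrays. It was 0 after quantile normalization, 0 without the 2 arrays low in muscle genes and 0 to 12 leaving out 1 array. The causes were not tested. With 7 or 6 arrays fewer orders are possible, and quantile normalization kept all 8 arrays. The count of pairs with r of at least 0.7 lay between 13 and 19 leaving out 1 array. No member had a further probe set, so that alternative gave no value. The filters and the mean of all probe sets leave a sheath gene's own difference as it is and are not counted; under the other settings 90 single-gene differences stayed within 1 SD of the value as deposited and kept their direction, 5 moved further and 1 reversed.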
